A study of Mus musculus with 8 samples.

Results

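The genes described here are 38 genes that are active mainly in endothelial cells, the cells that line blood vessels. They were taken from a fixed list of names that was chosen with earlier results of these data known. Every probe set annotated to exactly 1 of those symbols was used, which gave 72 probe sets. All 38 genes were measured, out of 18193 genes in the whole table, with the mean of its probe sets as the value of a gene. They were measured on 8 arrays of bone RNA, from 4 Hyp samples and 4 wild-type (WT) samples, in both cases tibia and femur of males at 12 days of age. Hyp mice lack the 3′ part of Phex on a C57BL/6 background and are used to study X-linked hypophosphatemia, in which the kidney wastes phosphate and bone mineralizes poorly. The strain of the WT mice is labelled only as wild type. Each RNA combined 2 bone samples of 1 genotype, and both genotypes received the same standard diet. How many animals gave the RNAs is not stated in the labels, and the p-values therefore reflect only how much these RNA samples varied, which may be partly technical.

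Endothelial cells hold the vessel wall together through junction proteins such as VE-cadherin, and their identity is maintained by transcription factors of the ETS and SOX families. Bone is a highly vascular tissue: capillaries invade the growth plate ahead of the osteoblasts, and the marrow is drained by wide sinusoids with a leaky wall. Some of the genes are also active outside the endothelium, for example Fli1, Ets1 and Cd93 in blood cells, Aqp1 in red cells, Selp and Vwf in megakaryocytes, and Cav1 in smooth muscle and fat cells. In RNA from whole bone, more endothelial cells and more RNA per endothelial cell cannot be told apart.

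The deposited values had a median of 0 over the 8 arrays for every probe set, on a log2 scale. They show differences between arrays and no levels, so one gene cannot be set against another by level, and whether endothelial markers were present at all cannot be read. With 1 probe set and all Hyp arrays above all WT arrays, the lowest Hyp and highest WT values lie equally far from 0. Phex fell by 6.67 ± 0.15 on the log2 scale (SE; limma adjusted p = 3.75e-09) and Fgf23, the phosphate-lowering hormone of bone, rose by 5.61 ± 0.18 (limma adjusted p = 1.22e-07), with no overlap between genotypes. WT replicate 3 and Hyp replicate 2 stood apart in skeletal muscle genes: the mean of 16 such genes was 0.15, -1.27, 0.091 and -0.24 in Hyp replicates 1 to 4 and -0.55, -0.16, 1.99 and 0.32 in WT replicates 1 to 4. All 16 lay lower in Hyp bone, with a median of -0.72, and none passed the threshold.

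Endothelial genes were higher in Hyp bone. Of the 38 genes, 24 rose and none fell at a limma adjusted p under 0.05, a share of 63.2%, where 6.54% of all 18193 genes rose and 6.32% fell. The increases were modest: the largest, of Robo4, was 1.52-fold, and the median difference over the 38 genes was 0.33 on the log2 scale, against 0.025 over all genes. In 24 genes every Hyp array lay above every WT array, which was the case for 10.3% of all genes, and in none did every Hyp array lie below every WT array (8.89% of all genes). All 38 differences were above 0, as were those of 10557 of all 18193 genes. Of the 38, 6 (Sele, Erg, Fli1, Ets1, Cd93 and Calcrl, none past the threshold) went below 0 under at least 1 other way of processing. The count that rose was 15 without WT replicate 1, between 17 and 25 without any other single array, and 21 without both Hyp replicate 2 and WT replicate 3.

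**Figure D1:**
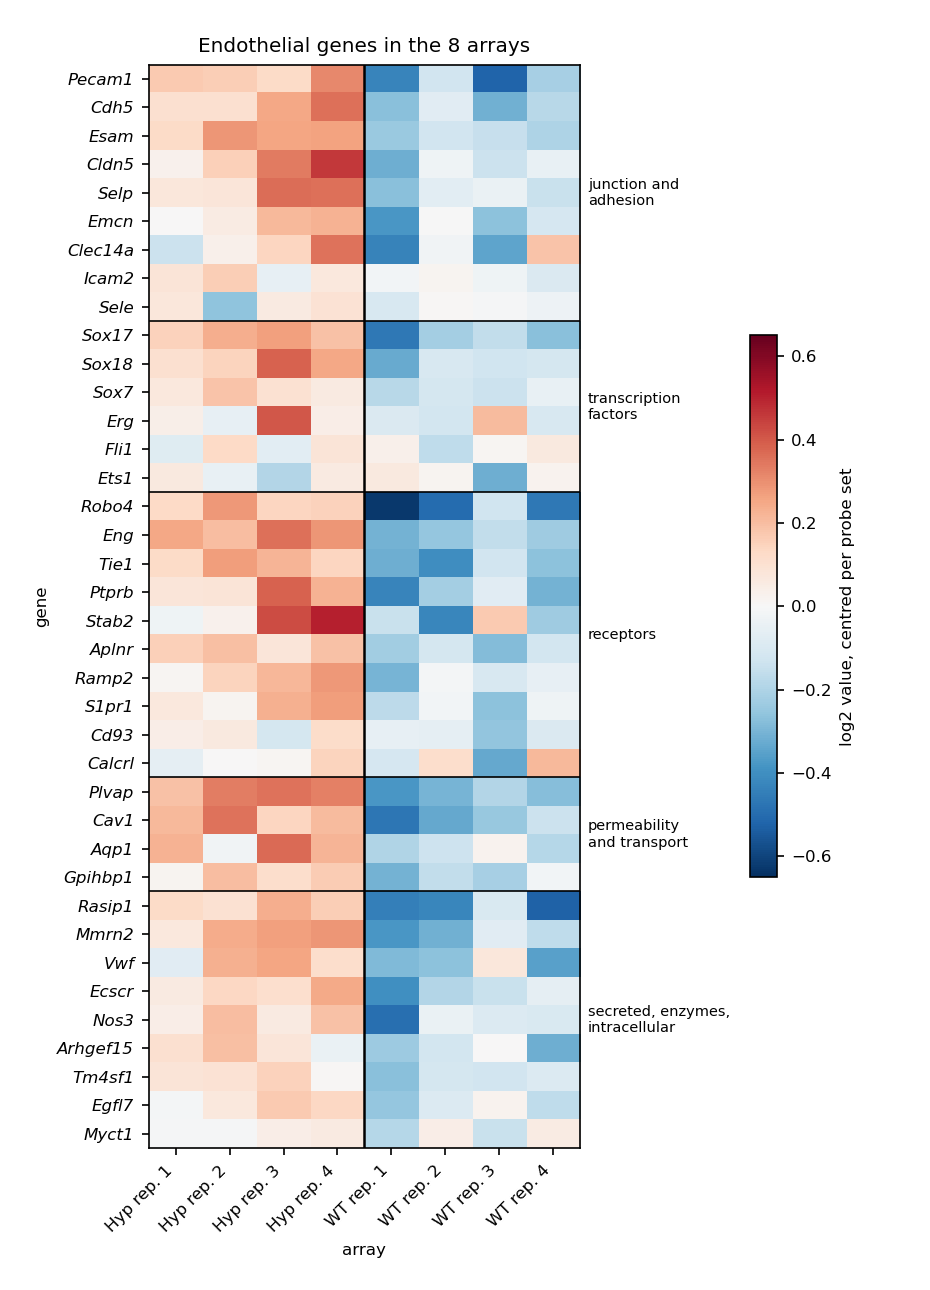
Log2 values of the 38 endothelial genes (rows, grouped by role and sorted by difference within a role) in the 8 arrays (columns, Hyp on the left and WT on the right), centred per probe set and averaged per gene. Red is above and blue below 0, which is the median of the 8 arrays for each single probe set. The Hyp columns are mostly red and the WT columns mostly blue, with the palest contrast in Ets1, Fli1, Sele and Calcrl.

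The ETS family of transcription factors acts on endothelial promoters, so the promoters of the genes were read for ETS, SOX and GATA motifs. The RefSeq promoter table (GRCm38.p6, 250 bases before to 50 after each transcript start) held 22 windows for 17 of the 38 genes. It was used for Cldn5, Sele, Selp, Emcn, Clec14a, Erg, Eng, Tie1, Robo4, Calcrl, Stab2, Cav1, Aqp1, Egfl7, Rasip1, Myct1 and Tm4sf1. On either strand, CAGGAAG, an ETS motif, was in 8 of the 22 windows (36.4%) and in 13.3% of all 32851 windows. ACAGGAA, the ETS part of a motif shared by FOX and ETS factors, which overlaps CAGGAAG where the run is ACAGGAAG, was in 7 windows (31.8%), against 8.67% of all windows. CGGAAG, another ETS motif, was in 1 window (4.55%, Tie1), against 16.9% of all windows. At least 1 of these 3 ETS motifs was in 9 windows (40.9%), against 31.9% of all windows. The SOX motifs ACAATG and ACAAAG and the GATA motif AGATAA were in 2 windows each (9.09%), against 12.6%, 18.7% and 11.2% of all windows. These matches describe letters in the windows and not bound sites.

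The following stretches are the 100 bases just before the transcript start, from 6 of the genes with an ETS motif there, with the motifs (either strand) in capitals. They are shown because they come both from genes that rose (Robo4, Rasip1 and Emcn) and from genes that did not pass the threshold (Egfl7, Calcrl and Sele). They lie at chr9:37401872-37401971 (plus strand, Robo4), chr7:45627437-45627536 (plus, Rasip1), chr3:137340978-137341077 (plus, Emcn), chr2:26580983-26581082 (plus, the first of 3 Egfl7 starts), chr2:84425267-84425366 (minus, Calcrl) and chr1:164048134-164048233 (plus, Sele).
Robo4: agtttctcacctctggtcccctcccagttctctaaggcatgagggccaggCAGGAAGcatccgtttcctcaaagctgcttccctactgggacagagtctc
Rasip1: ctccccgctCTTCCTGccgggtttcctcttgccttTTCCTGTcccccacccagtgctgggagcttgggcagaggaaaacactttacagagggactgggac
Emcn: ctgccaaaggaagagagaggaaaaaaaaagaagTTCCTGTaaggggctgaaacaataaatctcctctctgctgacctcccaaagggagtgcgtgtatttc
Egfl7: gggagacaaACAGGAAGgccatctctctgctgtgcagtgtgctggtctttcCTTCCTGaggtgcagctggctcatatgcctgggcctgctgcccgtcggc
Calcrl: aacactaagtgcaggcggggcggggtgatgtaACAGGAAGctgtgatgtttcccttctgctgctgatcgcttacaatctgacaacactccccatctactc
Sele: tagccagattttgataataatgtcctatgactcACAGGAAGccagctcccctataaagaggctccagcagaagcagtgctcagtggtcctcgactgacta
Over all windows, at least 1 of the 3 ETS motifs was found for 8 of the 17 genes. Of these, Emcn, Tie1, Robo4 and Rasip1 rose, and Sele, Erg, Calcrl and Egfl7 did not pass. Of the genes without one, Cldn5, Selp, Eng, Cav1, Aqp1 and Tm4sf1 rose, and Clec14a, Stab2 and Myct1 did not pass.

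Of 9 junction and adhesion genes 6 rose in Hyp bone and 3 did not pass. Pecam1, which encodes the adhesion molecule CD31 of endothelial junctions, was at 0.17, 0.16, 0.13 and 0.31 in Hyp replicates 1 to 4 and at -0.43, -0.13, -0.52 and -0.21 in WT replicates 1 to 4. The genotypes did not overlap, and WT replicates 1 and 3 were the lowest of the 8 arrays. Pecam1 rose by 0.51 ± 0.09 on the log2 scale, or 1.43-fold (SE, n = 4 per group; limma adjusted p = 0.0033). Cdh5 encodes VE-cadherin, the main adhesion protein of endothelial junctions. It was at 0.10, 0.11, 0.25 and 0.36 in Hyp bone and at -0.27, -0.071, -0.31 and -0.18 in WT bone, with no overlap, and rose by 0.41 ± 0.07 (limma adjusted p = 0.00507). Of its 2 probe sets 1 rose by 0.45 ± 0.07 (limma adjusted p = 0.00347), and the other lay at 0.38 ± 0.14 (adjusted p = 0.137). Esam, a junctional adhesion molecule of endothelium and platelets, had values of 0.12, 0.29, 0.26 and 0.26 in Hyp bone and -0.24, -0.12, -0.15 and -0.20 in WT bone. It had the smallest error of this group and rose by 0.41 ± 0.05 (limma adjusted p = 0.000749).

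The tight junction protein gene Cldn5 and Emcn, a sialomucin of capillary and venous endothelium that marks the capillaries near the growth plate, rose by 0.38 ± 0.10 and 0.31 ± 0.09 (limma adjusted p = 0.0289 and 0.0402). Both calls depended on single arrays. The adjusted p of Cldn5 was 0.0786, 0.0676 and 0.0871 without Hyp replicate 3, Hyp replicate 4 or WT replicate 1. Emcn passed without Hyp replicate 1 or WT replicate 2, and had an adjusted p between 0.059 and 0.111 when another array was left out; it was 0.0522 and 0.0591 with quantile and cyclic loess normalization. Selp encodes P-selectin, which is released to the surface to slow passing leucocytes. Its 4 Hyp values were 0.072, 0.081, 0.36 and 0.36 and its 4 WT values -0.27, -0.070, -0.045 and -0.14. It rose by 0.35 ± 0.08 (limma adjusted p = 0.021), with 1 of its 3 probe sets past the threshold at 0.38 ± 0.08 (adjusted p = 0.0226) and the others at 0.34 ± 0.10 and 0.33 ± 0.12 (adjusted p = 0.0822 and 0.13). Its adjusted p was 0.0583 and 0.056 without Hyp replicate 3 or 4, and 0.0674 and 0.0527 without WT replicate 1 or 4.

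The other 3 adhesion genes did not pass. Sele, the E-selectin gene of activated endothelium, lay at 0.025 ± 0.079 (limma adjusted p = 0.876), with a 95% interval from -0.15 to 0.20, and Hyp replicate 2 was its lowest array at -0.26. Icam2, a ligand for leucocyte integrins, lay at 0.095 ± 0.056 (adjusted p = 0.308), and its interval from -0.029 to 0.22 excluded the size of the Pecam1 increase. Clec14a, a lectin-like protein of the endothelial surface, had a wide interval from -0.059 to 0.56 around 0.25, and its WT values ran from -0.43 to 0.19.

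**Figure D2:**
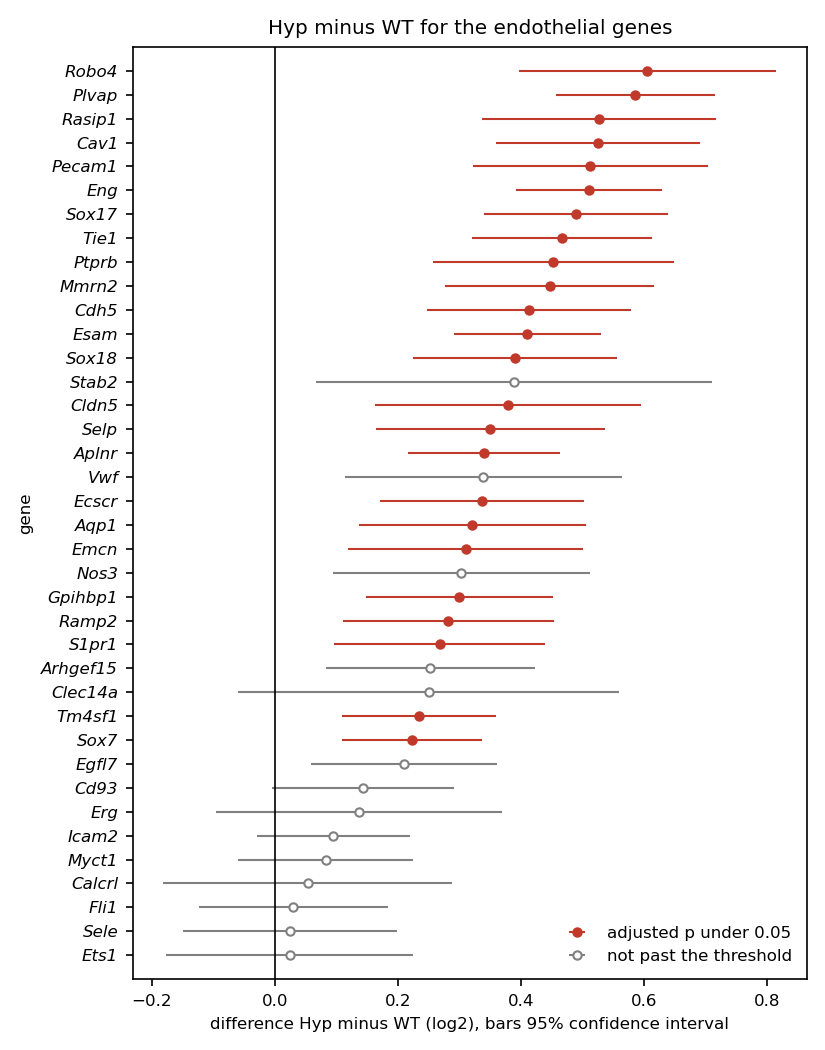
Difference between Hyp and WT bone (log2, horizontal axis) for each of the 38 endothelial genes, with bars for the 95% confidence interval of the limma fit on 4 arrays per genotype. Filled red points are the 24 genes past the threshold and open grey points the 14 that were not; the points run from 0.024 for Ets1 to 0.61 for Robo4.

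Among transcription factors, the 3 SOX genes passed and the 3 ETS genes did not. Sox7, Sox17 and Sox18 form the SoxF group, which acts in arterial and lymphatic specification and in vessel growth. Sox17 was at 0.15, 0.24, 0.27 and 0.19 in Hyp bone and at -0.46, -0.22, -0.16 and -0.27 in WT bone. The genotypes lay well apart, and Sox17 rose by 0.49 ± 0.07 (limma adjusted p = 0.000999), with both probe sets past the threshold at 0.41 ± 0.08 and 0.57 ± 0.08. Sox18 was at 0.10, 0.15, 0.38 and 0.25 in Hyp bone and at -0.33, -0.10, -0.13 and -0.11 in WT bone, and rose by 0.39 ± 0.08 (limma adjusted p = 0.00716). Its groups did not overlap, and WT replicate 1 lay well below the other WT arrays. Sox7 was at 0.070, 0.19, 0.10 and 0.058 in Hyp bone and at -0.18, -0.12, -0.14 and -0.047 in WT bone on the mean of its 2 probe sets, a difference of 0.22 ± 0.05 (limma adjusted p = 0.0174).

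The 2 probe sets of Sox7 disagreed. At 1 of them Sox7 rose by 0.52 ± 0.10 (limma adjusted p = 0.0119), close to Sox17, while the other lay at -0.072 ± 0.067 (adjusted p = 0.579). The adjusted p of their mean was 0.0608 without WT replicate 1.

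Erg, Fli1 and Ets1 encode ETS factors; Erg is the most endothelial of them, and Fli1 and Ets1 are also active in blood cells. Their differences were 0.14 ± 0.10, 0.030 ± 0.069 and 0.024 ± 0.091 (limma adjusted p = 0.441, 0.824 and 0.894). The 95% intervals of Fli1 and Ets1 ended at 0.184 and 0.225, below the point values of Sox17 and Sox18, whereas that of Erg reached 0.37. The Ets1 interval included the Sox7 difference of 0.224, and it overlapped the Sox18 interval, which began at 0.224. Whether the ETS genes differed less than the SOX genes was not tested. Erg was highest in Hyp replicate 3 (0.40), with the other Hyp arrays between -0.051 and 0.043, and WT replicate 3 stood at 0.20, above the other WT arrays. Ets1 had its lowest value, -0.32, in that same WT array.

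Receptors held the largest single increase. Of 10 receptor genes 7 rose. Robo4, a guidance receptor that stabilizes the endothelial barrier, was at 0.13, 0.28, 0.14 and 0.15 in Hyp bone and at -0.63, -0.50, -0.13 and -0.47 in WT bone. Hyp arrays lay close together apart from replicate 2, while among WT arrays replicate 3 was much the highest. Robo4 rose by 0.61 ± 0.09, or 1.52-fold (limma adjusted p = 0.00212), and by 0.71 without WT replicate 3. Eng encodes endoglin, a co-receptor for BMP9 and TGF-beta. It was at 0.25, 0.20, 0.36 and 0.29 in Hyp bone and at -0.31, -0.25, -0.16 and -0.23 in WT bone, and rose by 0.51 ± 0.05 (limma adjusted p = 0.000186), with both probe sets past the threshold. Tie1, the partner of the angiopoietin receptor, was at 0.12, 0.27, 0.22 and 0.14 in Hyp bone and at -0.32, -0.40, -0.12 and -0.27 in WT bone. No Hyp value overlapped a WT value, and Tie1 rose by 0.47 ± 0.07 (limma adjusted p = 0.00116).

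Ptprb, the endothelial phosphatase VE-PTP that acts on VE-cadherin and the angiopoietin receptor, rose by 0.45 ± 0.09 (limma adjusted p = 0.00791), and all 3 of its probe sets passed, at 0.29 to 0.54. Aplnr, the apelin receptor of venous and growing vessels, rose by 0.34 ± 0.06 (adjusted p = 0.00292) at both probe sets. S1pr1, a receptor for sphingosine 1-phosphate that is also present on lymphocytes, rose by 0.27 ± 0.08 (adjusted p = 0.0464), the weakest of the calls. It passed without Hyp replicate 2 or WT replicate 2 and had an adjusted p between 0.0564 and 0.123 when another array was left out. The call was also lost with median centring (adjusted p = 0.0549), quantile normalization (0.0548) and cyclic loess normalization (0.0612) of the arrays.

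The subunits of the adrenomedullin receptor differed in their calls. Ramp2, the accessory protein that makes the receptor selective for adrenomedullin, rose by 0.28 ± 0.08 (limma adjusted p = 0.0375), with values from 0.013 to 0.28 in Hyp bone and from -0.30 to -0.013 in WT bone. It passed without Hyp replicate 1 or WT replicate 2, and had an adjusted p between 0.0532 and 0.0984 when another array was left out, and 0.0512 with quantile normalization. Calcrl, the receptor itself, lay at 0.054 ± 0.106 (adjusted p = 0.791), with all 3 probe sets between 0.023 and 0.086. Its WT arrays spread from -0.33 in replicate 3 to 0.21 in replicate 4, and its interval ran from -0.18 to 0.29. The difference between the subunits was not tested.

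Stab2, the hyaluronan scavenger receptor of sinusoids, had the widest spread of the receptors. It was at -0.030, 0.030, 0.42 and 0.51 in Hyp bone and at -0.14, -0.42, 0.17 and -0.23 in WT bone, with a difference of 0.39 ± 0.15 (limma adjusted p = 0.111). Hyp replicates 3 and 4 stood above all WT arrays and the other Hyp arrays did not; without WT replicate 3 the adjusted p was 0.0347. Cd93, a C-type lectin receptor of endothelium and myeloid cells, was at 0.044, 0.062, -0.11 and 0.12 in Hyp bone and at -0.053, -0.056, -0.26 and -0.095 in WT bone on the mean of 5 probe sets. Hyp replicate 3 lay among the WT values, the difference was 0.14 ± 0.07 (adjusted p = 0.196), and the probe sets disagreed. At 2 of them Cd93 rose, by 0.35 ± 0.06 and 0.43 ± 0.10 (limma adjusted p = 0.00723 and 0.0236), while the other 3 lay between -0.071 and 0.030 (adjusted p from 0.671 to 0.957). Without probe sets whose ID ends in _a_at, _s_at or _x_at, the Cd93 mean passed at 0.27.

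**Figure D3:**
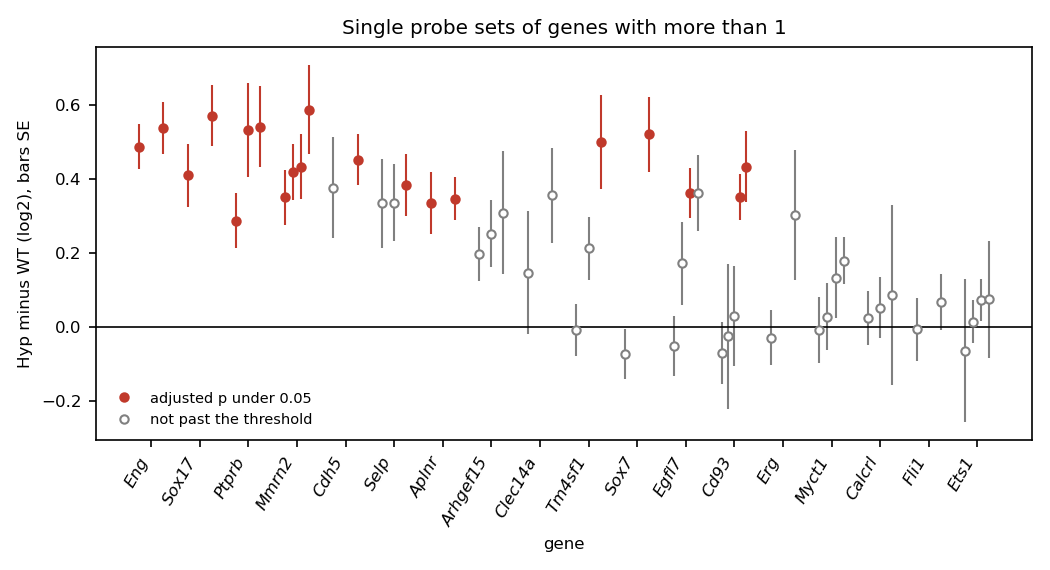
Difference between Hyp and WT bone (log2, vertical axis, bars SE) for every probe set of the 18 endothelial genes with more than 1 probe set, ordered by gene mean. Filled red points passed the threshold over all probe sets; in Sox7, Cd93, Egfl7 and Tm4sf1 a red point stands beside open points near 0.

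All 4 genes of permeability, caveolae and transport rose. Plvap forms the diaphragms of fenestrae and caveolae in leaky capillaries and sinusoids. It was at 0.19, 0.33, 0.35 and 0.33 in Hyp bone and at -0.38, -0.30, -0.19 and -0.28 in WT bone. Hyp replicate 1 lay below the other Hyp arrays but above every WT array, and Plvap rose by 0.59 ± 0.06 (limma adjusted p = 0.000143), the smallest p of the 38 genes. Cav1, the caveolar coat protein, was at 0.21, 0.35, 0.14 and 0.21 in Hyp bone and at -0.47, -0.33, -0.25 and -0.14 in WT bone, and rose by 0.53 ± 0.08 (limma adjusted p = 0.00121). No Cav1 value of a Hyp array reached down to a WT value.

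Aqp1, a water channel of endothelium and red cells, was at 0.22, -0.022, 0.37 and 0.22 in Hyp bone and at -0.20, -0.14, 0.022 and -0.19 in WT bone. It was the only one of the 24 genes that rose in which the genotypes overlapped, through Hyp replicate 2 and WT replicate 3. Its increase was 0.32 ± 0.08 (limma adjusted p = 0.0292). It passed without Hyp replicate 2 or WT replicate 3, and had an adjusted p between 0.0611 and 0.0891 when another array was left out. Gpihbp1, which carries lipoprotein lipase across capillary endothelium, rose by 0.30 ± 0.07 (limma adjusted p = 0.0169); the adjusted p was 0.0534 without WT replicate 1.

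Among 9 genes of secreted proteins, enzymes and intracellular signalling 4 rose: Rasip1, Mmrn2, Ecscr and Tm4sf1. Rasip1, a Ras-interacting protein needed to open the lumen of vessels, was at 0.12, 0.098, 0.23 and 0.16 in Hyp bone and at -0.45, -0.43, -0.098 and -0.53 in WT bone. WT replicate 3 stood apart from the other WT arrays, as it did for Robo4, and Rasip1 rose by 0.53 ± 0.09 (limma adjusted p = 0.00272). Mmrn2, an endothelial matrix protein and ligand of CLEC14A and CD93, was at 0.067, 0.24, 0.27 and 0.28 in Hyp bone and at -0.38, -0.31, -0.073 and -0.17 in WT bone. It rose by 0.45 ± 0.08 (limma adjusted p = 0.00371), and all 4 of its probe sets passed, at 0.35 to 0.59. Ecscr, a regulator of endothelial migration, rose by 0.34 ± 0.08 (adjusted p = 0.015). Tm4sf1, a tetraspanin-like protein of endothelial nanopodia, rose by 0.23 ± 0.06 on the gene mean (adjusted p = 0.022), with Hyp values of 0.085, 0.094, 0.15 and 0.0097 and WT values of -0.27, -0.11, -0.13 and -0.087.

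Tm4sf1 also had probe sets that disagreed. At 1 it rose by 0.50 ± 0.13 (limma adjusted p = 0.0416), and the others lay at 0.21 ± 0.09 and -0.0080 ± 0.0707 (adjusted p = 0.174 and 0.963). The adjusted p of its mean was 0.0539, 0.0532 and 0.0619 without Hyp replicate 1, 2 or 3, and 0.0644 without WT replicate 1.

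Vwf, the von Willebrand factor gene of endothelium and megakaryocytes, was at -0.075, 0.23, 0.26 and 0.11 in Hyp bone and at -0.29, -0.27, 0.075 and -0.35 in WT bone. Hyp replicate 1 and WT replicate 3 were the arrays that overlapped, and the difference of 0.34 ± 0.10 fell short of the threshold (limma adjusted p = 0.0529). It passed without Hyp replicate 1 (adjusted p = 0.0328) and without WT replicate 3 (0.0066). Nos3, the endothelial nitric oxide synthase gene, lay at 0.30 ± 0.09 (adjusted p = 0.0611) with every Hyp array above every WT array. Its WT replicate 1, at -0.49, was far below the other WT arrays (-0.097 to -0.045), and without it the difference was 0.20 (adjusted p = 0.0827). Arhgef15 lay at 0.25 ± 0.08 (adjusted p = 0.0559) and passed without Hyp replicate 4 or WT replicate 3 (adjusted p = 0.0474 and 0.018).

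Egfl7, a secreted protein of growing vessels, was at -0.012, 0.069, 0.17 and 0.13 in Hyp bone and at -0.25, -0.086, 0.025 and -0.16 in WT bone, a difference of 0.21 ± 0.07 (limma adjusted p = 0.0703). Of its 4 probe sets 1 rose by 0.36 ± 0.07 (adjusted p = 0.00975), another lay at the same size with a larger error (0.36 ± 0.10, adjusted p = 0.0624), and the others lay at 0.17 ± 0.11 and -0.052 ± 0.081. Without WT replicate 3 the gene mean passed (adjusted p = 0.0248). Myct1, a membrane protein of endothelium and blood progenitors, lay at 0.083 ± 0.064 (adjusted p = 0.448), with its interval ending at 0.23.

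Over single probe sets, 30 of 72 were higher and none lower in Hyp bone (limma, adjusted over 45037 probe sets), where 3.22% of all probe sets were higher and 3.91% lower. The median probe set difference was 0.33. The probe sets of 6 genes differed in call: Cdh5, Selp, Sox7, Cd93, Egfl7 and Tm4sf1. Cldn5, Emcn, Ramp2, S1pr1 and Aqp1 have 1 probe set each and passed over genes but not over probe sets, where their adjusted p lay between 0.0524 and 0.0844. In 15 of the 24 genes that rose, the call held without any single array; the 9 exceptions were Cldn5, Selp, Emcn, Sox7, Ramp2, S1pr1, Aqp1, Gpihbp1 and Tm4sf1.

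The arrays of a genotype differed from one another across many of the genes. Hyp replicate 1 was the lowest Hyp array in 23 of the 38 genes, and WT replicate 1 was the lowest WT array in 23. The mean of the 38 genes was 0.070, 0.13, 0.18 and 0.20 in Hyp replicates 1 to 4 and -0.27, -0.14, -0.13 and -0.14 in WT replicates 1 to 4. WT replicate 3 was the highest WT array in 15 genes, among them Robo4, Rasip1, Tie1, Ptprb, Vwf, Erg and Stab2, and the lowest in 7 (Pecam1, Cdh5, Ets1, Cd93, Calcrl, S1pr1 and Aplnr). This was also the array with the highest skeletal muscle genes, at a list mean of 1.99; what part that had in the endothelial values was not tested, and the median difference of the 38 genes was 0.33 without WT replicate 3 and Hyp replicate 2. The median SD between WT arrays was 0.13 for the 38 genes and 0.09 for all genes, and between Hyp arrays 0.094 and 0.084.

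Other endothelial genes, none of them among the 38, were mostly higher too. Their list was also chosen with earlier results of these data known. Of 25 further pan-endothelial genes measured, 15 rose and none fell (60%), with a median difference of 0.33. Mcam, an adhesion molecule of endothelium and pericytes, rose by 0.52 ± 0.07, Exoc3l2 by 0.39 ± 0.06, Tal1, a transcription factor of blood and endothelium, by 0.43 ± 0.07, and Kank3 by 0.43 ± 0.08 (limma adjusted p from 0.000749 to 0.00469). Named after their values were seen, the VEGF receptor genes Kdr and Flt1 rose by 0.37 ± 0.07 and 0.36 ± 0.08, and Tek, the angiopoietin receptor gene, by 0.37 ± 0.08 (adjusted p = 0.00708, 0.0182 and 0.0169). Grrp1 and Exoc3l were the only genes of this list below 0, at -0.20 ± 0.09 and -0.0063 ± 0.0942, and neither passed.

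Lists for arteries and veins held genes that rose and genes that fell, where 6.54% of all genes rose and 6.32% fell. Of 15 arterial genes 4 rose and 2 fell, with a median of 0.063. Gja4, a connexin of arterial endothelium, Sema3g and Fbln5, an elastic fibre protein, rose by 0.70 ± 0.09, 0.64 ± 0.11 and 0.55 ± 0.07, and the Notch ligand gene Dll4 by 0.27 ± 0.07 (limma adjusted p from 0.000739 to 0.0239). Unc5b, a netrin receptor gene, and the Notch target Hey1 fell by 0.44 ± 0.06 and 0.51 ± 0.11 (adjusted p = 0.00089 and 0.0143). Of 7 venous genes Ephb4, a receptor for ephrin-B2, rose by 0.30 ± 0.05 and Nrp2, a co-receptor for VEGF and semaphorins, fell by 0.36 ± 0.09, a call lost without Hyp replicate 1, Hyp replicate 4 or WT replicate 1. Of 11 sinusoidal genes 3 rose and none fell, led by Stab1, a scavenger receptor also present on macrophages, at 1.08 ± 0.11 (adjusted p = 0.000161). Another that rose stands in the adipocyte list too. With WT replicate 3 left out, 1 sinusoidal gene fell. None of 5 lymphatic genes passed.

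Of 11 tip cell and angiogenic genes 3 rose and 1 fell, with a median of -0.056. Those that rose were Mcam and the basement membrane gene Nid2, which stand in other lists too, by 0.52 ± 0.07 and 0.44 ± 0.06 (limma adjusted p = 0.000749 and 0.00106), and Pdgfb, the pericyte-recruiting growth factor gene, by 0.25 ± 0.05 (adjusted p = 0.00554). Angpt2, the antagonistic angiopoietin gene, fell by 0.21 ± 0.06 (limma adjusted p = 0.0418), a call lost without Hyp replicate 1, 2 or 4 and without WT replicate 1, 2 or 4. Vegfa and the tip cell gene Esm1, named after their values were seen, lay at -0.12 ± 0.08 and -0.14 ± 0.11 (adjusted p = 0.36 and 0.422). Of 6 flow-responsive genes 2 rose, 1 fell and 3 did not pass. Thbd, the thrombomodulin gene, and Cyp1b1, a cytochrome P450 gene, rose by 0.29 ± 0.06 and 0.37 ± 0.10 (limma adjusted p = 0.0155 and 0.0408); the number that rose was 0 without WT replicate 1 and 1 without Hyp replicate 3, Hyp replicate 4 or WT replicate 2. The transcription factor gene Klf4 fell by 0.71 ± 0.07 (limma adjusted p = 0.000179), while Klf2 lay at -0.015 ± 0.077 (adjusted p = 0.926). Klf4 is active in many cell types, and in which cells any of the 6 genes changed was not tested.

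**Figure D4:**
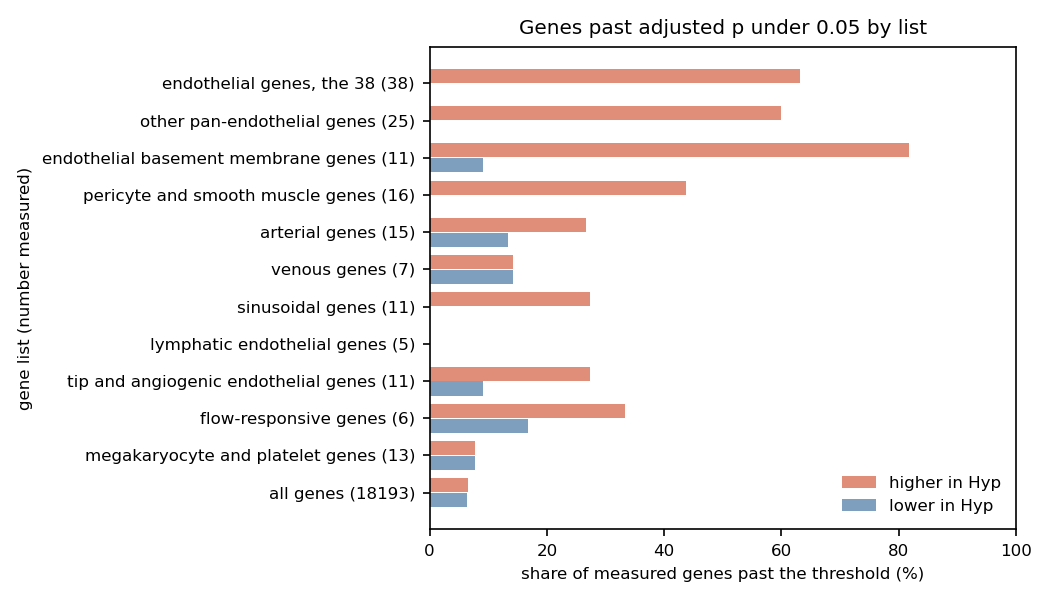
Share of measured genes past the threshold (percent, horizontal axis), higher in Hyp (red) and lower in Hyp (blue), for the 38 endothelial genes, other vascular and platelet lists and all genes, with the number of genes measured in brackets. The 38 genes (63.2% higher) and the further pan-endothelial genes (60%) stand near each other, against 6.54% higher in all genes.

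Of 11 genes of the endothelial basement membrane, the matrix sheet under the cells, 9 rose and 1 fell. The collagen IV genes Col4a2 and Col4a1 rose by 0.75 ± 0.08 and 0.73 ± 0.09, the endothelial laminin chain gene Lama4 by 0.58 ± 0.07 and Nid2 by 0.44 ± 0.06 (limma adjusted p from 0.000179 to 0.00106). Sparc, which osteoblasts also make in large amounts, fell by 0.22 ± 0.05 (limma adjusted p = 0.0186), a call lost without WT replicate 1. In which cells any of these 11 genes changed was not tested. Of 16 pericyte and smooth muscle genes 7 rose and none fell, with a median of 0.23. Pdgfrb, the PDGF receptor of pericytes, rose by 0.58 ± 0.05, and Notch3, Myh11 and Kcnj8 by 0.43 ± 0.07, 0.42 ± 0.06 and 0.36 ± 0.07 (adjusted p from 7.46e-05 to 0.00488).

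Markers of other cells of the bone differed between the genotypes too. Of 13 macrophage genes 9 rose and none fell, with a median of 0.76 and list means between 0.23 and 0.35 in Hyp arrays and between -0.39 and -0.24 in WT arrays. Of 11 erythroid genes 8 rose and none fell, with a median of 0.35, and their list means lay between 0.043 and 0.18 in Hyp arrays and between -0.34 and -0.13 in WT arrays, lowest in WT replicate 1 as for the 38 genes. The 9 osteoblast genes measured, of 14 listed, had a median of -0.42, and 6 of them fell while 1 rose. The call of the gene that rose was lost without Hyp replicate 2. Since the values are relative, what part a changed mix of cells had in the endothelial increase was not tested. The 10 general leucocyte genes had a median of 0.11 with 1 higher, and 9 adipocyte genes 1 higher and 1 lower. The 13 megakaryocyte and platelet genes, cells that share Vwf, Selp and Esam with endothelium, had a median of -0.10, with Nfe2 higher at 0.33 ± 0.08 (a call lost without Hyp replicate 2, 3 or 4 and without WT replicate 1, 2 or 4) and Rab27b lower at -0.42 ± 0.05. Of the 13, 11 lay below 0, where 10557 of all 18193 genes lay above 0. These lists share a few genes with each other, none with the 38.

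**Figure D5:**
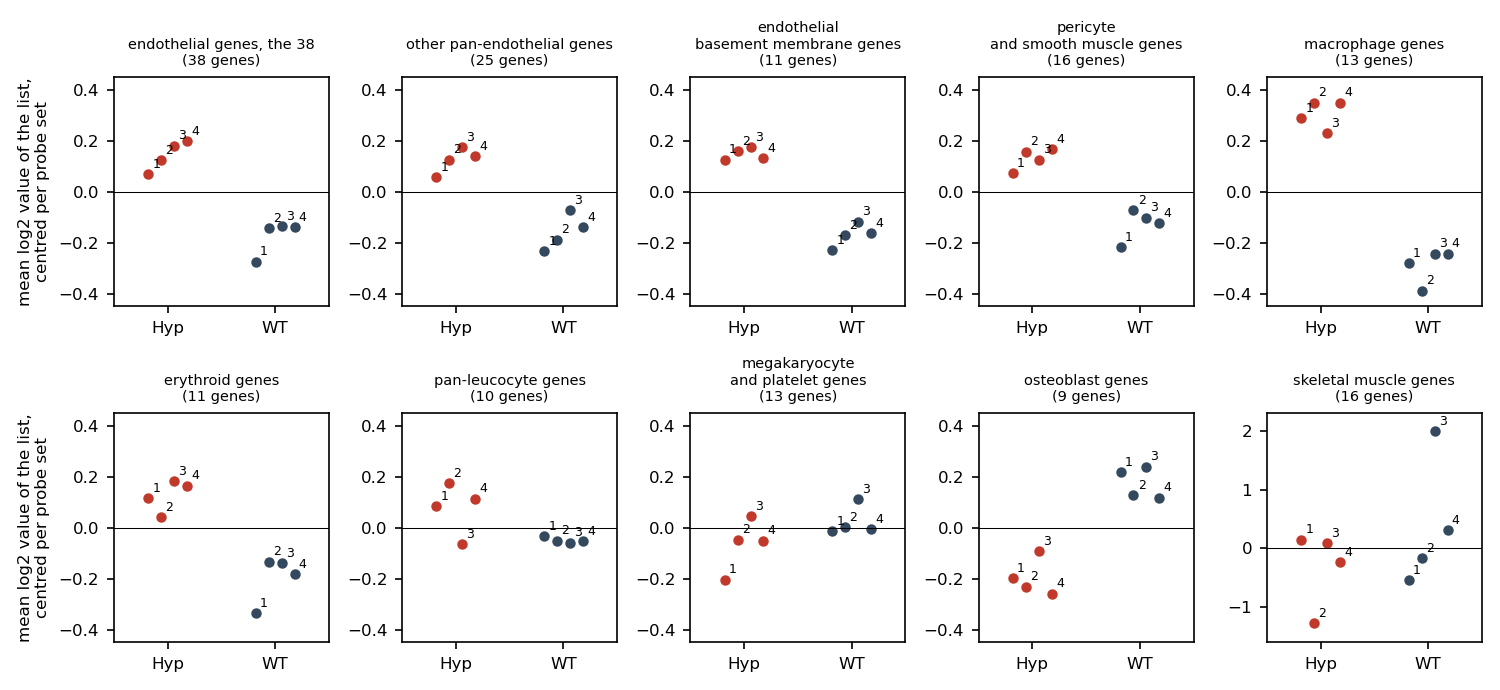
Mean log2 value, centred per probe set, of each gene list (vertical axis) in the 4 Hyp arrays (red, left) and the 4 WT arrays (dark, right), with the replicate number beside each point. The first 6 lists lie higher in Hyp than in WT arrays with no overlap, osteoblast genes lie lower, and the skeletal muscle panel has its own wider axis, with WT replicate 3 at 1.99 and Hyp replicate 2 at -1.27.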

How the data were processed

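The deposited table holds 1 log2 value per probe set and array; the authors used RMA to make it, per the submitters' processing notes; its version and background step are not given in the sources used here. Every probe set had a median of 0 over the arrays, a centring that no label records, and the log base was taken as 2. Of 45101 probe sets 64 controls were left out; 34945 had 1 gene symbol, updated through gene identifiers in RefSeq (GRCm38.p6), 932 had several and 9160 none here. Probe sets were averaged per gene, and differences, Hyp minus WT, were fitted with limma 3.58.1 under R 4.3.3 (lmFit, eBayes, two-sided, no covariate) over all 18193 genes, with Benjamini-Hochberg adjustment and a threshold of 0.05. A second fit took the 45037 probe sets. Errors marked ± are SE. For arrays, their number limits the precision; the median SE of a gene difference was 0.065.

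The 38 genes, the comparison lists and the motifs were chosen with earlier results of these data known. Values in every array are given for up to 3 genes per role with the largest differences and for genes whose probe sets differ in call, and for Stab2 as an addition; from other lists, up to 4 genes with the smallest p are named. Kdr, Flt1, Tek, Grrp1, Exoc3l, Hey1, Dll4, Klf2, Vegfa, Esm1 and Sparc were named after their values were seen. Alternatives covered gene summary, normalization, prior, array weights, a replicate block, a filter on spread, thresholds and left-out arrays. A filter on dim probe sets needs levels and could not be run.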

Additional observations from a re-analysis of the deposited data

Results flagged for a closer look

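In 15 of 154 groups of 4 arrays examined (38 endothelial genes, 37 other named genes, Phex and Fgf23, each in both genotypes), 1 array lay far from the other 3 by Dixon's test; chance flags about 1 in 20. Among endothelial genes these were Sele at -0.263 in Hyp replicate 2 (the other Hyp arrays between 0.0605 and 0.0915), Robo4 at 0.283 in Hyp replicate 2, Plvap at 0.189 in Hyp replicate 1, Sox18 at -0.33 and Nos3 at -0.489 in WT replicate 1, and Erg at 0.204 and Ets1 at -0.317 in WT replicate 3. Of the other genes, Klf4 lay at -0.196 in Hyp replicate 3, Vegfa at -0.18 in Hyp replicate 2, Notch3 at 0.0799 in Hyp replicate 1, Tek at -0.356 and Kcnj8 at -0.301 in WT replicate 1, Hey1 at 0.349 in WT replicate 2, and Stab1 at -0.316 and Thbd at -0.021 in WT replicate 3.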

How the results depend on the processing

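None of the 38 genes was called lower under any of the 20 alternatives run, and their median difference stayed between 0.28 and 0.35. The count that rose was 14 at an adjusted p under 0.01, lay between 15 and 25 when 1 array was left out (fewest without WT replicate 1), and between 17 and 28 otherwise. The 17 were of 31 genes that kept a probe set once IDs ending in _a_at, _s_at or _x_at were left out. Pecam1, Emcn, Eng, Cav1 and Rasip1 had only _a_at probe sets and were not tested there. Under that setting none of 10 sinusoidal and none of 5 venous genes rose, and 1 of 7 tip cell genes did. These lists held 11, 7 and 11 measured genes before, of which 3, 1 and 3 rose. The genes that left them were not retested. Because the sinusoidal list went only from 11 to 10 genes, some of its lost calls were of genes that stayed and no longer passed. Of the 24 calls 11 were lost in at least 1 alternative, the stricter threshold included, and 6 other genes passed in at least 1. Over all genes, 407 were higher and 618 lower at an adjusted p under 0.01, 1891 were higher at an adjusted p under 0.1, and between 605 and 1437 were higher with 1 array left out. Among the 72 probe sets, between 19 and 32 were higher with 1 array left out, an alternative chosen after seeing the data. Fewer arrays leave fewer degrees of freedom; beyond that the cause was not tested. Same-numbered Hyp and WT arrays correlated in their deviations from the group means by -0.0101 to 0.18, so the numbers were not taken as pairs; with the replicate block 28 of the 38 genes and 34 of the 72 probe sets were higher, and S1pr1 had an adjusted p of 0.0664.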
